A study of Mus musculus with 8 samples.

Results

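Sarcomere, Z-disc and M-band genes were followed in heart RNA of aged mice given a western diet and of control mice. The set was taken by gene symbol: 37 genes, out of 30153 in the deposited table, that encode thick and thin filament proteins, titin and M-band proteins, Z-disc proteins, desmin-linked proteins and factors that assemble or modify the filaments. All 37 were in the table, and 36 of them reached 1 TPM in 4 or more of the 8 libraries, the minimum for testing. TPM, a relative measure of transcript number, divides the reads of a transcript by its length and scales each library to a fixed total, so levels of different genes can be compared but read depth is not kept. The series has 4 libraries from the western diet group and 4 from the control group, all from heart tissue of C57/BL6 mice. Mice of both groups are described as aged and as haplotype II carriers, where the haplotype is that of a human gene for the angiotensin type 1 receptor, overexpressed per the series title. Thus the western diet is the only labelled difference, and no library without the human gene was analysed here. The sources used here do not give the promoter that drives the human gene, the exact age, the sex, the length of the diet or any batch. The labels do not state that each library came from a separate animal, and the p-values cover only the spread among the 8 libraries, part of which may be technical.

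The sarcomere is the contractile unit of striated muscle, in which myosin thick filaments pull actin thin filaments towards the M-band at its centre. Z-discs anchor thin filaments at both ends, titin spans from Z-disc to M-band, and the troponin and tropomyosin proteins on the thin filament make contraction depend on calcium. The ventricle of the adult mouse uses mainly the alpha myosin heavy chain, and a move towards the beta chain is a well known feature of the loaded or failing rodent heart.

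No sarcomere gene passed the test for a difference between western diet and control hearts. The test was limma on log2(TPM + 1) over all 10969 tested genes, two-sided, with a Benjamini-Hochberg adjusted p under 0.05 called changed. Of all tested genes, 0.301 percent were called (0.228 percent higher and 0.0729 percent lower with western diet, 25 and 8 genes, or 31 and 18 under median-of-ratios scaling), against 0 of the 36 tested sarcomere genes. At an unadjusted p under 0.05, 5 of the 36 were lower and 0 were higher with western diet, where 11.7 percent of all tested genes passed, 2.51 percent lower and 9.2 percent higher. The count includes Myom3, which passed the minimum for testing only through the controls, where it was high, and without it 4 genes were lower. The 5 were Myom3, Lmod3, Tpm2, Tcap and Synpo2l, with estimates between -0.46 and -0.28 on the log2 scale. Over the 36 genes the median log2 fold change was -0.057, and 22 of 36 estimates were below 0. Over all tested genes the median was 0.061, and 33.6 percent of estimates were below 0. Precision was limited by 4 libraries a group: the 95% interval lay within a 1.5-fold change in either direction for 30 of the 36 genes and within a 2-fold change for all 36. These are bulk libraries, so for any lower level fewer cardiomyocytes and less RNA per cardiomyocyte cannot be told apart.

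**Figure D1:**
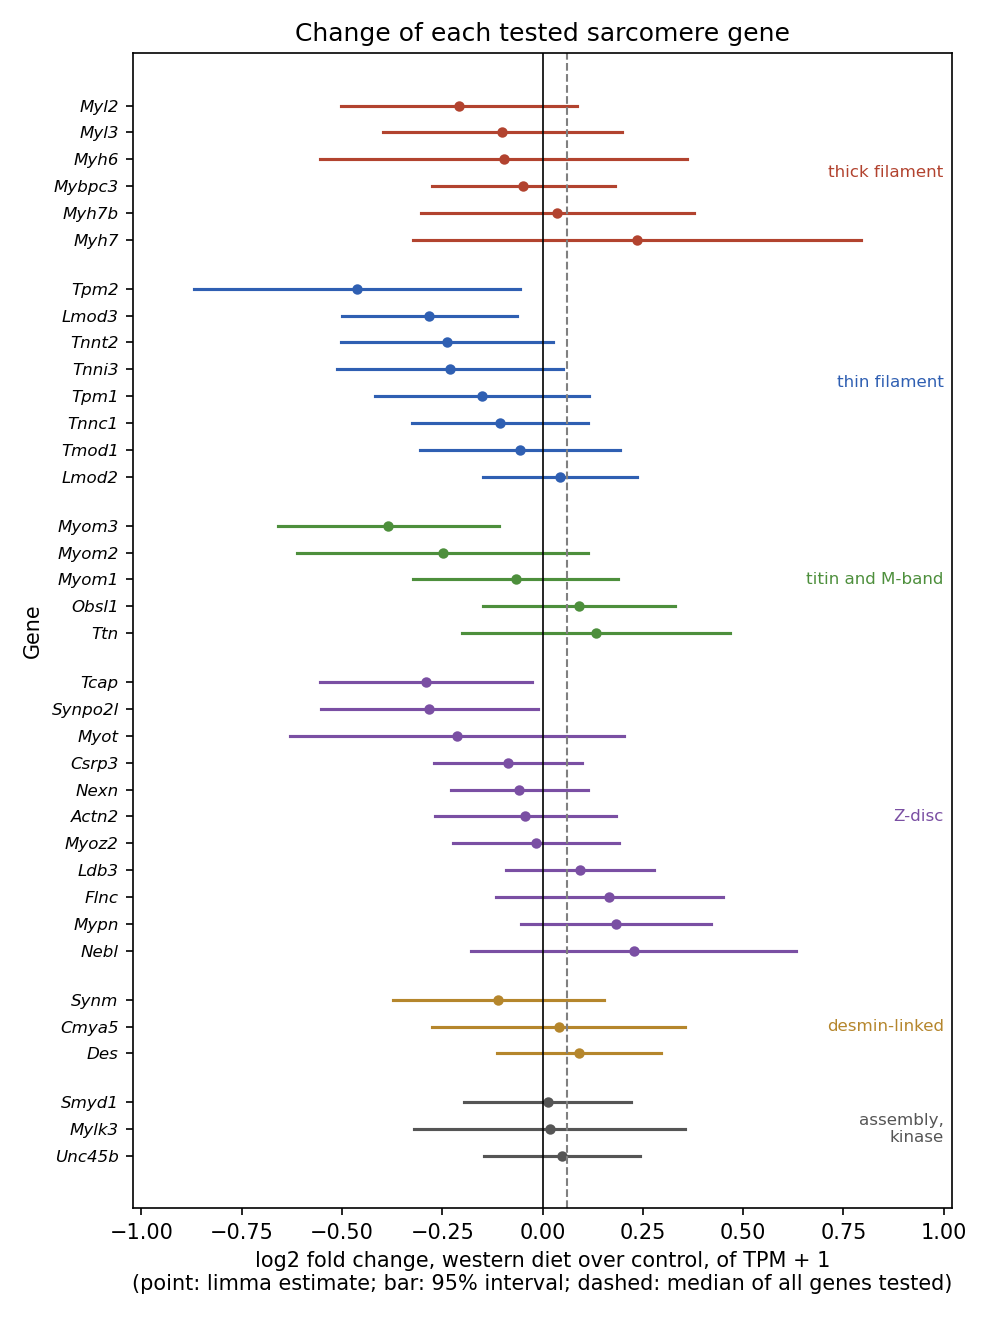
Log2 fold change of each tested sarcomere gene (x axis, western diet over control on the log2(TPM + 1) scale; points are limma estimates and bars 95% intervals), grouped by filament class. The thin filament genes lie mostly left of 0, with a median of -0.19, and no gene passed the adjusted threshold.

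Among thin filament genes, 7 of 8 estimates were below 0, with a median log2 fold change of -0.19. Among thick filament genes 4 of 6 were below 0, with a median of -0.073, and among titin and M-band genes 3 of 5, with a median of -0.067. Among Z-disc genes 7 of 11 tested were below 0, with a median of -0.043. The desmin-linked class had 1 of 3 below 0 and a median of 0.04, and the assembly and light chain kinase class had 0 of 3 below 0 and a median of 0.018. No class median was tested, and none is called particular to its class. When libraries were scaled by median of ratios in place of TPM, the medians of the desmin-linked and assembly classes turned to -0.038 and -0.062, and the thin filament median was -0.27. When each library was left out in turn, the thin filament median stayed below 0, from -0.23 to -0.12, and the other 5 class medians lay on both sides of 0. They ranged from -0.12 to 0.0013 for thick filament genes, positive only without western diet replicate 4, and from -0.14 (without control replicate 2) to 0.00067 (without western diet replicate 1) for titin and M-band genes. The range was -0.072 to 0.026 for Z-disc genes, positive without western diet replicate 4, -0.095 (without control replicate 2) to 0.095 (without control replicate 4) for desmin-linked genes and -0.032 (without control replicate 2) to 0.09 (without western diet replicate 4) for assembly and light chain kinase genes.

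Some libraries stood apart in ways the labels do not describe. Y-linked transcripts were present in all 4 control libraries and in western diet replicate 4, with summed levels of 41.3 TPM in that library and 38.6 to 52.6 TPM in controls, and summed to at most 0.27 TPM in western diet replicates 1, 2 and 3. Atrial transcripts (Myl7 at 100 TPM or more) were present in western diet replicate 2 and in control replicates 1 and 3. The 6 kidney markers summed to 9.45 to 79.3 TPM in western diet libraries, highest in replicate 4, and to 0.0336 to 0.744 TPM in controls. Red cell markers summed to 1975 to 14256 TPM with western diet, highest in replicate 1, and to 2378 to 4455 TPM in controls. Mitochondrially encoded transcripts took 27.3 to 39.3% of the listed TPM in western diet libraries and 34.6 to 36.5% in controls, a difference of means of -0.20 percentage points (two-sided exact permutation p = 0.943 over 70 assignments). The part of these differences in the values of the sarcomere genes was not tested beyond fits with and without these libraries. Of the tissue's own markers, Myl2, the ventricular regulatory light chain, ranked 13 by mean level among all tested genes, and 15 of 15 cardiomyocyte genes outside the sarcomere passed the minimum for testing.

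Sarcomere transcripts together made up 6.66, 6.20, 5.42 and 5.09% of the listed TPM in western diet replicates 1 to 4, against 6.51, 6.61, 6.18 and 6.73% in control replicates 1 to 4. Western diet replicates 3 and 4 lay below every control, and replicates 1 and 2 lay among them. After mitochondrially encoded transcripts were left out, the share was 9.15, 9.48, 8.82 and 8.38% with western diet, against 9.96, 10.1, 9.45 and 10.6% in controls. On that scale 3 western diet libraries lay below every control, and replicate 2 lay just above the lowest control. Myl2 held the most TPM of the 37 genes, at a mean of 17383 TPM over the 8 libraries, and 9 of the 37 averaged at least 1000 TPM.

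**Figure D2:**
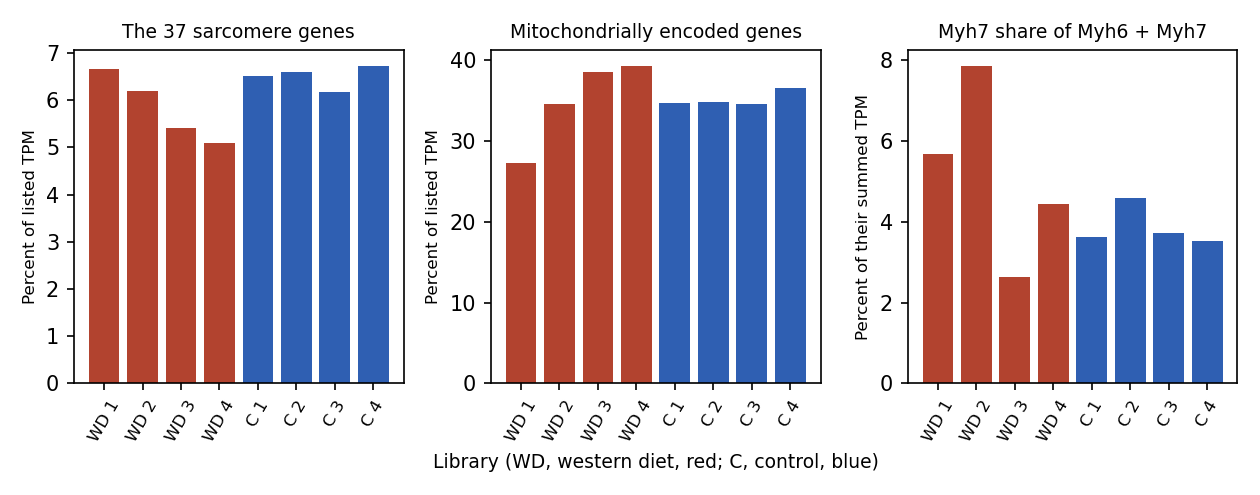
Share of the listed TPM taken by the 37 sarcomere genes and by mitochondrially encoded transcripts, and share of Myh7 in the summed Myh6 and Myh7 TPM (y axes in percent; 1 bar a library, western diet left and control right). In each panel western diet libraries spread more widely than controls, with sarcomere shares of 5.09 to 6.66% with western diet and 6.18 to 6.73% in controls.

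The thick filament is built from myosin. All 3 heavy chain genes of the set carry a microRNA in an intron, and the mature sequences are shown so that their seeds can be compared. The seed (bases 2 to 8) is in capitals, and sequences and positions are from RefSeq on GRCm38.p6.
miR-208a-3p (Myh6 intron 29, minus strand, chr14:54949072-54949093): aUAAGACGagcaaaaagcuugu
miR-208b-3p (Myh7 intron 31, minus strand, chr14:54975710-54975731): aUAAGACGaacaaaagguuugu
miR-499-5p (Myh7b intron 19, plus strand, chr2:155622893-155622913): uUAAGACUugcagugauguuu
The 208a and 208b sequences share the seed UAAGACG, and the seed of 499-5p is UAAGACU. Poly(A)-selected gene-level libraries do not measure mature microRNAs, so only the host transcripts were compared.

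Myh6 (ENSMUSG00000040752, chromosome 14, 54941921 to 54966927, minus strand), the alpha myosin heavy chain and main motor of the adult mouse ventricle, had 1106, 1319, 1712 and 984 TPM in western diet replicates 1 to 4, against 1189, 963, 1748 and 1605 TPM in control replicates 1 to 4. Its lowest and highest libraries belonged to control replicates 2 and 3, and the groups overlapped. The log2 fold change was -0.096 (95% interval -0.55 to 0.36), with a limma adjusted p of 0.901. Myh7, the beta myosin heavy chain, encoded next to Myh6, had 66.7, 113, 46.3 and 45.7 TPM in western diet replicates 1 to 4, against 44.7, 46.3, 67.5 and 58.6 TPM in control replicates 1 to 4. Western diet replicate 2 was the highest of the 8, replicate 4 was close to the lowest, and the estimate was 0.24 (95% interval -0.32 to 0.79) with a limma adjusted p of 0.772. Without western diet replicate 2 the Myh7 estimate was -0.038, and without the 3 libraries with atrial transcripts, of which replicate 2 is one, it was -0.00071. The Myh7 share of the summed Myh6 and Myh7 TPM was 5.69, 7.86, 2.63 and 4.44% in western diet replicates 1 to 4, against 3.62, 4.59, 3.72 and 3.52% in control replicates 1 to 4. Western diet libraries held both the highest and the lowest share, and their SD of 2.20 percentage points stood against 0.489 in controls. The coding sequences of Myh6 and Myh7 are nearly identical in long stretches, and how reads that match both were divided is not given, so both levels are uncertain. Myh7b, another heavy chain gene of striated muscle, was low at 5.34 to 9.39 TPM with western diet and 6.11 to 7.96 TPM in controls, and its estimate was 0.037 (95% interval -0.30 to 0.38).

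Light chains stabilise the myosin neck, and Myl2 and Myl3 encode the ventricular regulatory and essential chains. Myl2 had 18532, 17175, 15447 and 13530.2 TPM in western diet replicates 1 to 4, against 18292, 19582, 16694 and 19809.5 TPM in control replicates 1 to 4. Western diet replicates 3 and 4 lay below every control, while replicates 1 and 2 lay within the control range. The log2 fold change was -0.21 (95% interval -0.50 to 0.087) with a limma adjusted p of 0.591. Myl3 had 6627, 6779, 4665 and 6294 TPM in western diet replicates 1 to 4, against 6964, 6635, 5781 and 6513 TPM in control replicates 1 to 4. The groups overlapped, and western diet replicate 3 was the lowest library. The Myl2 level per Myl3 level was 2.80, 2.53, 3.31 and 2.15 in western diet replicates 1 to 4, against 2.63, 2.95, 2.89 and 3.04 in control replicates 1 to 4, with both the highest and the lowest ratio in western diet libraries. Mybpc3, cardiac myosin binding protein C, which sits on the thick filament and tunes cross-bridge cycling, had 846, 1058, 964 and 871 TPM in western diet replicates 1 to 4, against 1074, 867, 924 and 999.7 TPM in control replicates 1 to 4. Its groups overlapped, and the estimates of Myl3 and Mybpc3 were -0.10 (95% interval -0.40 to 0.20) and -0.049 (95% interval -0.28 to 0.18).

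The thin filament genes held the lowest class median. Tnnt2, troponin T, which binds tropomyosin, had 8106, 7189, 6142 and 5968 TPM in western diet replicates 1 to 4, against 7993, 8164, 7971 and 7954 TPM in control replicates 1 to 4. The 4 controls lay close together, and western diet replicates 2, 3 and 4 lay below all of them while replicate 1 lay within their range. Means were 6851 ± 995 TPM with western diet and 8020.4 ± 96.99 TPM in controls (SD, n = 4 each), and the log2 fold change was -0.24 (95% interval -0.50 to 0.025) with a limma adjusted p of 0.476. Tnni3, the inhibitory cardiac troponin I, had 6809, 5411, 5057 and 4639.6 TPM in western diet replicates 1 to 4, against 6391, 6795, 6177 and 6119 TPM in control replicates 1 to 4. It showed the same order, with western diet replicates 2, 3 and 4 below every control and replicate 1 above every control, and its limma adjusted p was 0.519 at an estimate of -0.23 (95% interval -0.51 to 0.05). Tnnc1, troponin C, the calcium sensor, had 3598, 3466, 3041 and 3034 TPM in western diet replicates 1 to 4, against 3521, 3601, 3288 and 3713 TPM in control replicates 1 to 4. Western diet replicates 3 and 4 were lowest, the groups overlapped, and the estimate was -0.11 (95% interval -0.33 to 0.11).

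Ratios between troponins within a library do not depend on how the library was scaled. The Tnnt2 level per Tnnc1 level was 2.25, 2.07, 2.02 and 1.97 in western diet replicates 1 to 4, against 2.27, 2.27, 2.42 and 2.14 in control replicates 1 to 4. Western diet replicates 2, 3 and 4 lay below every control, and replicate 1 lay between the lowest control and the rest. For Tnni3 per Tnnc1 the ratios were 1.89, 1.56, 1.66 and 1.53 with western diet, against 1.81, 1.89, 1.88 and 1.65 in controls, and the groups overlapped.

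Tpm1, the main cardiac tropomyosin, had 9743, 8668, 7736 and 7066 TPM in western diet replicates 1 to 4, against 9051, 9053, 8988 and 9513 TPM in control replicates 1 to 4. Western diet replicate 1 was the highest of the 8 libraries and replicates 2, 3 and 4 were the lowest, so the groups overlapped through replicate 1 alone, and the estimate was -0.15 (95% interval -0.42 to 0.12). Tpm2, beta tropomyosin, was far lower at 15.6, 20.6, 11.5 and 13.03 TPM in western diet replicates 1 to 4, against 21.2, 18.7, 28.03 and 16.7 TPM in control replicates 1 to 4. Western diet replicates 1, 3 and 4 lay below every control, and replicate 2 lay among them. The log2 fold change of Tpm2 was -0.46 (95% interval -0.87 to -0.055), SE 0.18, the lowest estimate of the set, with a limma adjusted p of 0.367. The tropomyosin genes share similar sequence, so a part of the reads of the abundant Tpm1 could fall on Tpm2 and its level is uncertain. These are bulk libraries, and it was not tested whether the Tpm2 transcripts came from cardiomyocytes or from other cell types.

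Leiomodins and tropomodulin act at the pointed ends of thin filaments, leiomodins as filament nucleators and tropomodulin as the cap. Lmod3 had 37.8, 40.5, 44.4 and 49.9 TPM in western diet replicates 1 to 4, against 50.3, 53.4, 49.3 and 57.01 TPM in control replicates 1 to 4. Western diet replicates 1, 2 and 3 lay below every control, and replicate 4 lay above the lowest control only. Its log2 fold change was -0.28 (95% interval -0.50 to -0.064) with an SE of 0.099 and a limma adjusted p of 0.294. Lmod2, the main cardiac leiomodin, had 252, 255, 219 and 264 TPM in western diet replicates 1 to 4, against 242, 229, 229 and 261 TPM in control replicates 1 to 4, with the highest and the lowest library both in the western diet group. Tmod1, the capping protein, had 109, 114, 119 and 86.96 TPM in western diet replicates 1 to 4, against 109, 97.01, 124 and 115 TPM in control replicates 1 to 4, with the lowest library in western diet replicate 4 and the highest in control replicate 3. The estimates of Lmod2 and Tmod1 were 0.043 (95% interval -0.15 to 0.23) and -0.056 (95% interval -0.31 to 0.19).

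**Figure D3:**
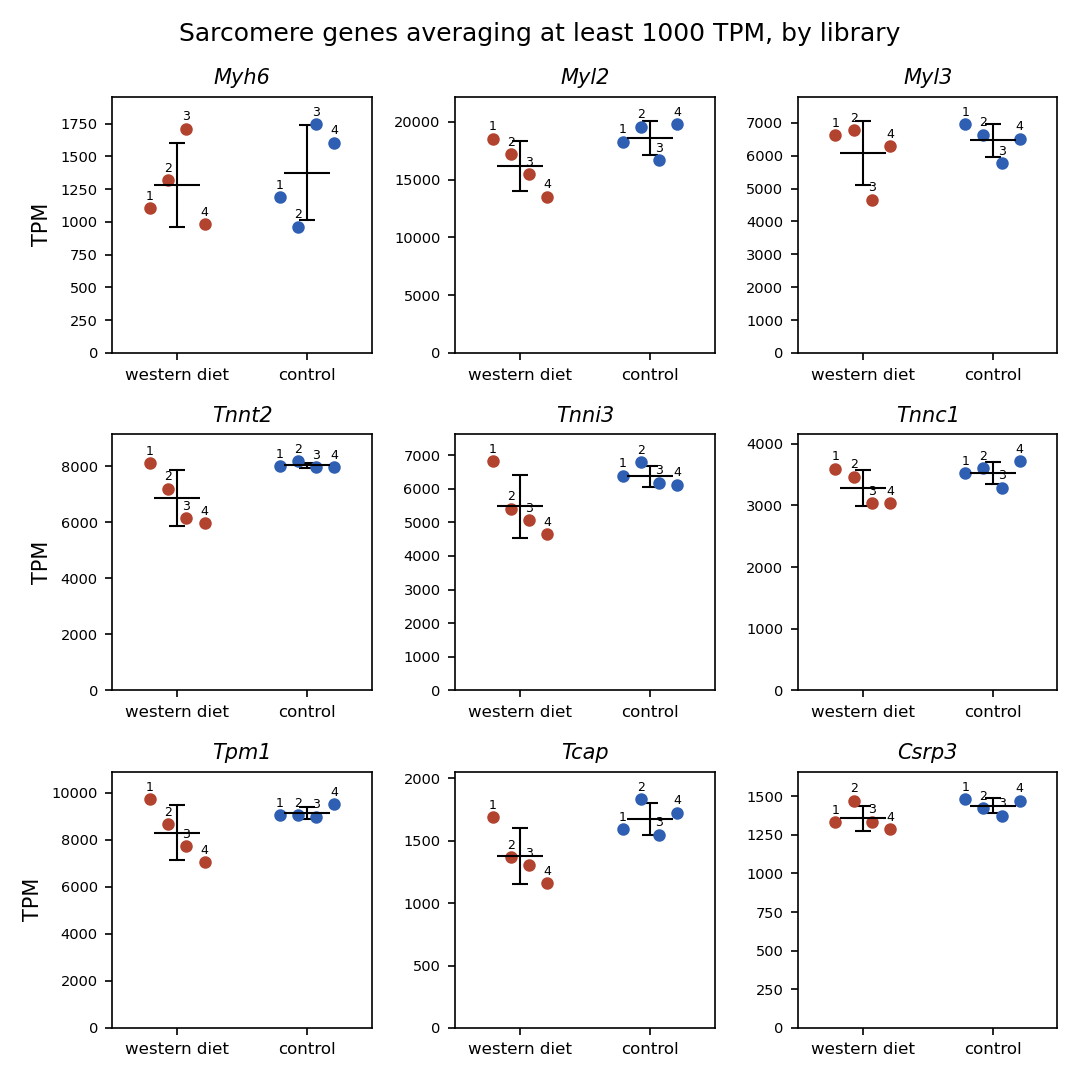
Level of the 9 sarcomere genes that average at least 1000 TPM (y axes, TPM; points are libraries with their replicate number, western diet left and control right, lines are mean ± SD, n = 4). For Tnnt2, Tnni3 and Tpm1, western diet replicates 2, 3 and 4 lie below every control, and replicate 1 lies within or above the control range.

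Summed over the 8 thin filament genes, levels were 28672, 25162, 22370.4 and 21121 TPM in western diet replicates 1 to 4, against 27378, 28010.2, 26853 and 27748 TPM in control replicates 1 to 4. Western diet replicate 1 was the highest of all 8 libraries, and the other 3 western diet libraries lay below every control. The sum is mostly that of the abundant genes Tpm1, Tnnt2, Tnni3 and Tnnc1. Tpm2, Lmod2, Lmod3 and Tmod1, of lower abundance, had other orders, and Lmod3 was lowest in western diet replicate 1. Western diet replicate 1 had the lowest mitochondrially encoded share of the 8 libraries, 27.3%, and replicates 3 and 4 had the highest, 38.5 and 39.3%. With mitochondrially encoded transcripts left out of the scaling, the class median was -0.19, and the log2 fold change of Tnnt2 was -0.24 with an SE of 0.07 and a limma adjusted p of 0.175.

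Y-linked transcripts separate the 4 controls and western diet replicate 4 from the other 3 western diet libraries. In the main fit, diet and the Y-linked state thus nearly coincide and cannot be told apart. With a term for Y-linked transcripts the estimates rest on western diet replicate 4. Their sign then differed from the main fit for 12 of the 36 genes, Myh7 among them at -0.22. When only the 5 libraries with Y-linked transcripts were compared, 2 of the 36 genes were called, both lower: Tnnt2 at -0.43 (limma adjusted p = 0.0392) and Myom2 at -0.73 (limma adjusted p = 0.0471). In that fit 0.693 percent of all tested genes were called, 0.21 percent lower. It rests on 1 western diet library, replicate 4, which is assumed to vary as the controls do. Replicate 4 was the lowest of the 8 libraries for 13 of the 36 sarcomere genes (36.1%) and for 25.7% of all tested genes. It also held the most kidney transcripts, whose part in these values was not tested.

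Titin is the spring and scaffold of the sarcomere. Ttn (chromosome 2, 76703980 to 76982547, longest protein-coding transcript 106824 bases) had 51.3, 75.05, 71.9 and 48.02 TPM in western diet replicates 1 to 4, against 52.8, 47.1, 60.6 and 60.6 TPM in control replicates 1 to 4. Western diet replicates 2 and 3 were the highest libraries and replicate 4 was near the lowest, and the estimate was 0.13 (95% interval -0.20 to 0.47). Myomesins cross-link myosin at the M-band. Myom1 had 217, 274, 284 and 232 TPM in western diet replicates 1 to 4, against 256, 225, 273 and 301 TPM in control replicates 1 to 4, with the lowest library in western diet replicate 1, the highest in control replicate 4 and overlap between the groups. Myom2 had 401, 334, 282 and 214 TPM in western diet replicates 1 to 4, against 375, 314, 351 and 391 TPM in control replicates 1 to 4. Western diet replicates 3 and 4 lay below every control and replicate 1 was the highest library, and the log2 fold change was -0.25 (95% interval -0.61 to 0.11) with a limma adjusted p of 0.604. Without western diet replicate 4 the Myom2 estimate was -0.088.

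Myom3, a myomesin known mainly from skeletal muscle, had 0.67, 0.945, 1.34 and 0.996 TPM in western diet replicates 1 to 4, against 1.36, 1.42, 1.76 and 1.80 TPM in control replicates 1 to 4. It was the single sarcomere gene whose groups did not overlap, 1 of 36 tested, where 6.6 percent of all tested genes did not overlap, 1.75 percent lower and 4.85 percent higher. The log2 fold change was -0.38 (95% interval -0.66 to -0.11) with an SE of 0.12, and the limma adjusted p was 0.254. Myom3 reached 1 TPM in 1 western diet library and in all 4 controls, so it entered the test only through the group where it was high. The minimum thus favoured a lower level with western diet, and its difference is not taken as support. At such low levels the pseudocount of 1 reduces the estimate, which was -0.66 with a pseudocount of 0.1 (limma adjusted p = 0.282). Obsl1, which links titin and myomesin at the M-band, averaged 17.9 ± 1.97 TPM with western diet and 16.7 ± 1.76 TPM in controls (SD, n = 4 each), with overlapping groups and an estimate of 0.09 (95% interval -0.15 to 0.33).

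At the Z-disc, Actn2, alpha-actinin, cross-links the thin filaments of adjoining sarcomeres. Actn2 had 546, 628, 576 and 480.4 TPM in western diet replicates 1 to 4, against 585, 517, 559 and 630.1 TPM in control replicates 1 to 4, with the lowest library in western diet replicate 4, the highest in control replicate 4 and overlap between the groups. Tcap, telethonin, which caps the Z-disc end of titin, had 1687, 1366, 1302 and 1160.3 TPM in western diet replicates 1 to 4, against 1594, 1835, 1548 and 1725 TPM in control replicates 1 to 4. Western diet replicates 2, 3 and 4 lay below every control, and replicate 1 lay within the control range, the order also seen for Tnnt2. Its log2 fold change was -0.29 (95% interval -0.56 to -0.027) with an SE of 0.12, an unadjusted p of 0.0336 and a limma adjusted p of 0.385. Csrp3, the muscle LIM protein, had 1332, 1472, 1334 and 1289 TPM in western diet replicates 1 to 4, against 1482, 1424, 1375 and 1472 TPM in control replicates 1 to 4. Ldb3, a PDZ and LIM protein that binds alpha-actinin, had 451, 492, 434 and 418 TPM in western diet replicates 1 to 4, against 439.7, 389, 419 and 432 TPM in control replicates 1 to 4. For Csrp3 western diet replicate 4 was the lowest library, and for Ldb3 control replicate 2 was. Both estimates were small, at -0.085 (95% interval -0.27 to 0.099) for Csrp3 and 0.094 (95% interval -0.09 to 0.28) for Ldb3.

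The calsarcins tether the phosphatase calcineurin to the Z-disc. Myoz2, the cardiac and slow muscle form, had 734, 739, 698 and 591 TPM in western diet replicates 1 to 4, against 736, 691, 658 and 701 TPM in control replicates 1 to 4, with western diet replicate 4 the lowest library and overlap between the groups. Myoz1, the fast skeletal form, was the gene below the minimum for testing, with 0.147, 0.239, 0.131 and 0.0439 TPM in western diet replicates 1 to 4, against 0.216, 0.13, 0.112 and 0.143 TPM in control replicates 1 to 4. All 8 of its values were below 1 TPM, and no fold change is given. Synpo2l, an actin-binding Z-disc protein of striated muscle, had 22.6, 33.3, 29.3 and 30.8 TPM in western diet replicates 1 to 4, against 32.9, 31.8, 39.04 and 37.4 TPM in control replicates 1 to 4. Western diet replicate 1 was the lowest library, replicate 2 lay above 2 of the controls, and the log2 fold change was -0.28 (95% interval -0.55 to -0.012) with a limma adjusted p of 0.407.

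Of the remaining Z-disc genes, Nebl, Mypn and Flnc had estimates above 0 and Myot and Nexn below 0, and none passed the test. Nebl, the cardiac nebulin relative nebulette, ranged from 53.8 to 81.9 TPM with western diet and from 43.6 to 81.4 TPM in controls, with an estimate of 0.23 (95% interval -0.18 to 0.63). Mypn, myopalladin, which binds alpha-actinin, ranged from 24.6 to 31.5 TPM with western diet and from 20.5 to 27.2 TPM in controls, with an estimate of 0.18 (95% interval -0.053 to 0.42). Flnc, the muscle filamin, ranged from 36.4 to 51.4 TPM with western diet and from 31.8 to 44.01 TPM in controls, with an estimate of 0.17 (95% interval -0.12 to 0.45). In all 3 cases the highest library was western diet replicate 2 or 3 and the lowest was control replicate 2. Myot, myotilin, ranged from 21.3 to 45.3 TPM with western diet and from 34.9 to 43.7 TPM in controls, lowest in western diet replicate 1, and Nexn, nexilin, ranged from 71.7 to 76.5 TPM with western diet and from 72.2 to 82.0 TPM in controls. Their estimates were -0.21 (95% interval -0.63 to 0.20) and -0.058 (95% interval -0.23 to 0.11).

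Desmin filaments join neighbouring Z-discs. Des had 575, 595, 501 and 496 TPM in western diet replicates 1 to 4, against 546, 486, 475 and 525 TPM in control replicates 1 to 4. Western diet replicates 1 and 2 were highest, and the estimate was 0.091 (95% interval -0.11 to 0.30). Synm, synemin, a desmin partner, ranged from 1.37 to 1.95 TPM with western diet and from 1.37 to 2.09 TPM in controls, and Cmya5, myospryn, which binds desmin, from 66.02 to 83.6 TPM with western diet and from 53.4 to 87.6 TPM in controls. The groups overlapped for both, with estimates of -0.11 (95% interval -0.37 to 0.15) and 0.04 (95% interval -0.28 to 0.36).

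Smyd1 encodes a muscle methyltransferase needed for sarcomere assembly, Unc45b a chaperone that folds myosin, and Mylk3 the cardiac kinase that phosphorylates the regulatory light chain. Smyd1 had 139, 156, 172 and 137 TPM in western diet replicates 1 to 4, against 151, 136, 151 and 159 TPM in control replicates 1 to 4. Mylk3 had 222, 206, 175 and 145 TPM in western diet replicates 1 to 4, against 164, 149.9, 219 and 204 TPM in control replicates 1 to 4. Western diet replicate 3 was the highest library for Smyd1, and western diet replicates 1 and 4 were the highest and the lowest for Mylk3. Unc45b ranged from 85.8 to 103 TPM with western diet and from 88.3 to 93.8 TPM in controls. The 3 estimates were 0.013 (95% interval -0.19 to 0.22) for Smyd1, 0.018 (95% interval -0.32 to 0.36) for Mylk3 and 0.048 (95% interval -0.15 to 0.24) for Unc45b.

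**Figure D4:**
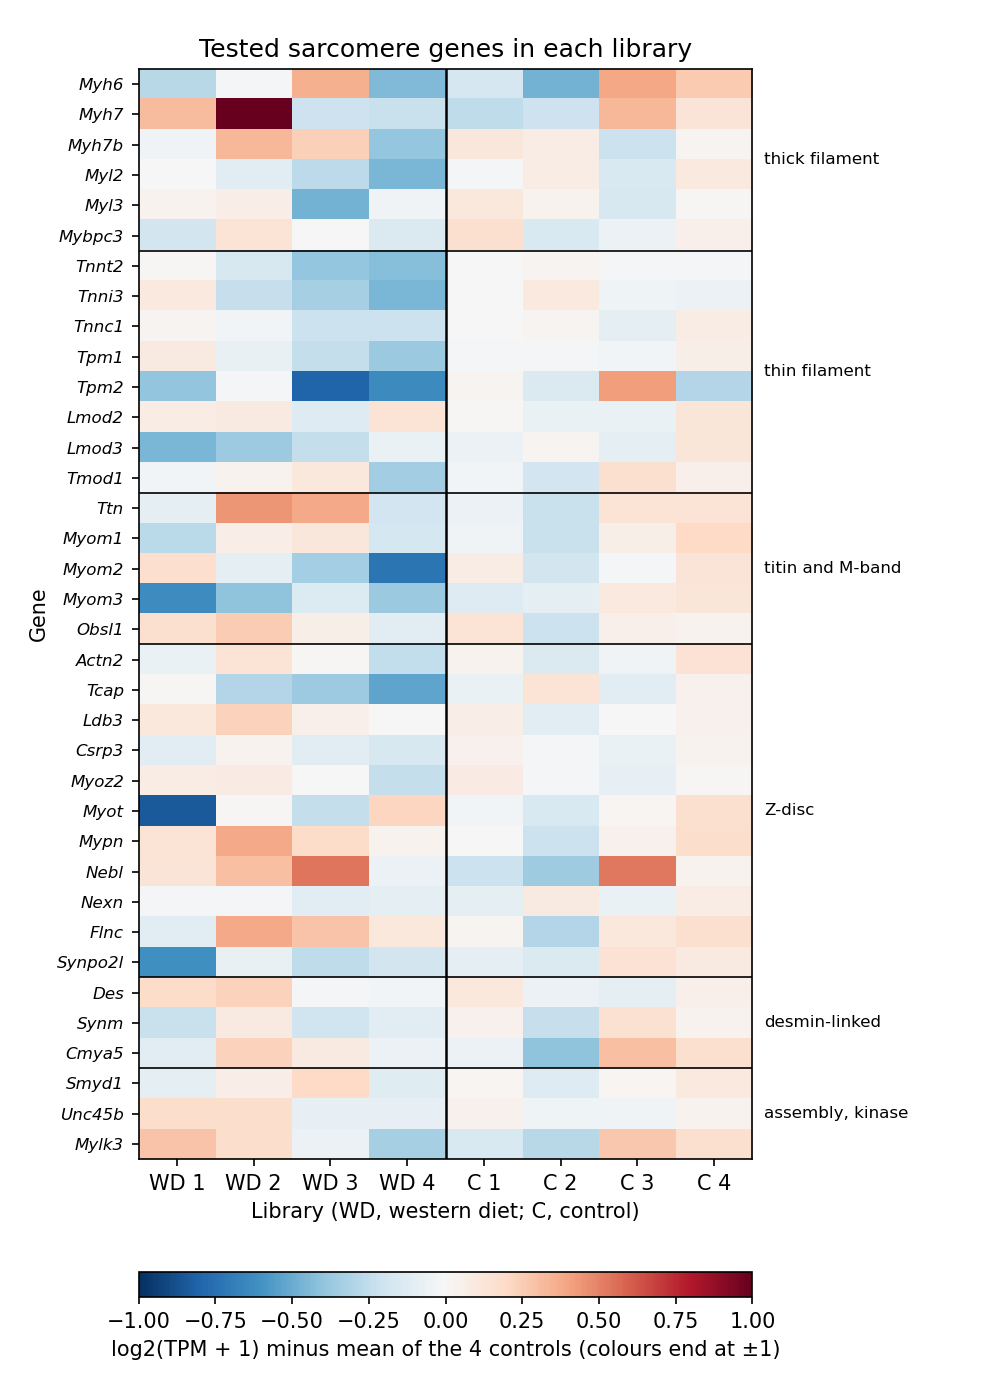
Level of each sarcomere gene in each library as log2 of its TPM + 1 minus the control mean (colour scale in log2 units; rows are genes by filament class, columns are western diet replicates 1 to 4 and then control replicates 1 to 4). Western diet replicate 4 is the lowest of the 8 libraries for 36.1% of the 36 genes and for 25.7% of all tested genes. Western diet replicate 2 is the highest for 25% of the 36 genes and for 30.0% of all tested genes. Among controls, replicate 2 is the lowest of the 8 libraries for 10 of the 36 genes (27.8%) and for 36.5% of all tested genes.

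Western diet libraries differed more among themselves than controls did. The SD of log2(TPM + 1) was larger with western diet for 30 of the 36 genes (83.3%), and for 61.9% of all tested genes. For thin filament genes it was larger in 8 of 8, with a median SD of 0.20 with western diet and 0.082 in controls. Desmin-linked genes were the exception, with a larger SD in western diet libraries for 1 of 3. This is a description of 8 libraries with no test, and western diet libraries also differed among themselves in the Y-linked, kidney and red cell transcripts given above.

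Sarcomere genes with short transcripts had lower estimates than those with long ones. Of the 9 tested genes with a longest protein-coding transcript of up to 2000 bases, 8 had an estimate below 0, with a median of -0.11. Of the 13 between 2000 and 5000 bases 9 were below 0, with a median of -0.056, and of the 14 longer ones 5 were, with a median of 0.065. Spearman's rho between length and log2 fold change was 0.52 over the 36 genes and 0.11 over 10659 tested genes, as a description, since all points share the same 8 libraries. Over the 20 alternative fits rho ranged from 0.22 to 0.65 for sarcomere genes and from 0.0025 to 0.22 for all genes. The abundant genes Myl2, Myl3, Tnnt2, Tnni3, Tnnc1, Tcap and Csrp3 are among the short ones. Length was not separated from abundance here, and the part of either was not tested. Within single libraries, rho between length and the level relative to the control mean was -0.052, 0.62, 0.66 and 0.22 in western diet replicates 1 to 4, against -0.17, -0.77, 0.65 and 0.40 in control replicates 1 to 4, so controls differed from one another along length as well.

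**Figure D5:**
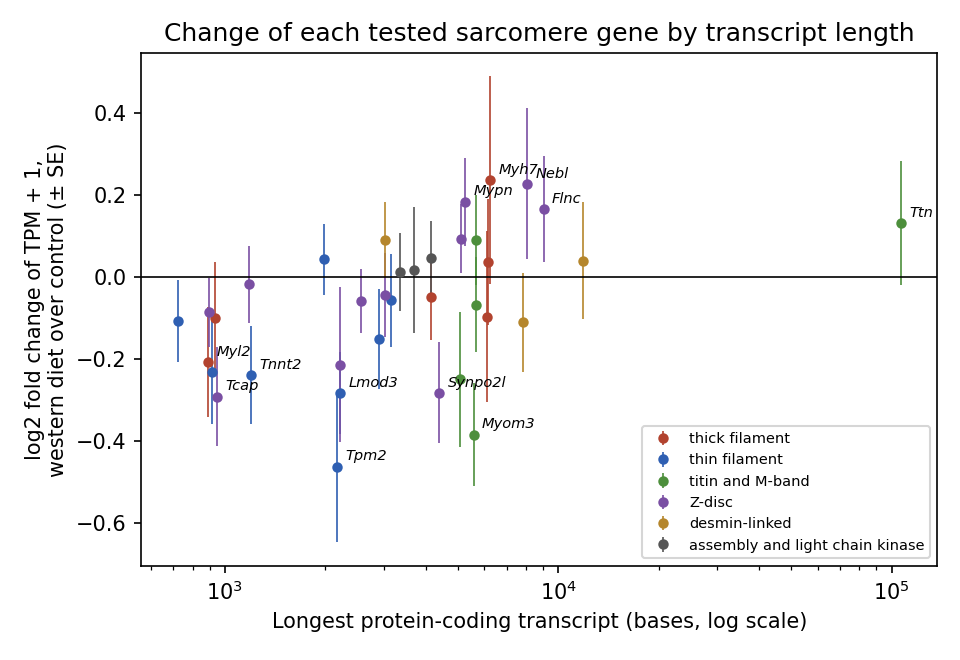
Log2 fold change of each tested sarcomere gene (y axis, western diet over control, log2(TPM + 1)) against its longest protein-coding transcript (x axis, bases, log scale), coloured by filament class. The 9 genes of up to 2000 bases lie mostly below 0, with a median of -0.11, and the 14 genes over 5000 bases lie on both sides.

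Promoter letters were searched for elements known from muscle genes. Of the 37 genes, 26 had a RefSeq promoter window whose start lay within 100 bases of a GENCODE start, and the 250 bases before the start were searched on both strands. The M-CAT element, CATTCC or its complement GGAATG, is bound by TEAD factors and is known from the cardiac troponin T gene. It was in 8 of the 26 windows (30.8%) and in 11.4% of 13193 windows over all genes. A MEF2 consensus was in 4 of 26 windows (15.4%) and 2.19% of all, a CArG box in 3 (11.5%) and 1.4% of all, and a TATA box (TATAAA) in 2 (7.69%) and 10.8% of all, where the letters of a MEF2 and a TATA match can overlap. M-CAT was the most frequent of the elements searched, both in the 26 windows and over all genes. Of the 9 genes that average at least 1000 TPM, 6 had a window, and 4 of these held M-CAT. These 4 windows are shown 5′ to 3′ on the strand of the gene, on GRCm38.p6, with M-CAT in capitals.
Myh6 (minus strand, chr14:54966608-54966857): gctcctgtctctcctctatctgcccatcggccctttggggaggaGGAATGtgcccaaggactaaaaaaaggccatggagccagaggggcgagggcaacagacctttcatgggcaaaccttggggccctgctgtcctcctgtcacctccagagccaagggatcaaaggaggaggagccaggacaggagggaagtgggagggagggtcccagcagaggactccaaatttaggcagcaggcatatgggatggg
Myl3 (plus strand, chr9:110763428-110763677): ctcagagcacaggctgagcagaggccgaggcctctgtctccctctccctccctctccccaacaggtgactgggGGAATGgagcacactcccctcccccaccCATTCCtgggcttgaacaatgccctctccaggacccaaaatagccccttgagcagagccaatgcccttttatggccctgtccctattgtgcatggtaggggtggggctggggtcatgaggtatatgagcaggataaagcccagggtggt
Tnnt2 (plus strand, chr1:135836084-135836333): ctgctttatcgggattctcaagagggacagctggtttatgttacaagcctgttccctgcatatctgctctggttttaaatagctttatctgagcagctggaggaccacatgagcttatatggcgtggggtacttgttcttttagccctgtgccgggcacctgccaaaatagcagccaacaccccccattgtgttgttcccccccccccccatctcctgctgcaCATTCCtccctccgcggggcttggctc
Tnnc1 (plus strand, chr14:31208062-31208311): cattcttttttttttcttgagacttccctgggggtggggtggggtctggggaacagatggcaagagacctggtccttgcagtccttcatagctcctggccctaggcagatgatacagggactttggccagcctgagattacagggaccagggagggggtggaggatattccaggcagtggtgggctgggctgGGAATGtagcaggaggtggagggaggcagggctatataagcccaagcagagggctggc
The M-CAT match begins 206 bases before the RefSeq start in Myh6, 27 in Tnnt2 and 58 in Tnnc1, and Myl3 holds matches at 177 and 149. That start lay 34 bases from the GENCODE start for Myh6, 32 for Myl3, 20 for Tnnt2 and 0 for Tnnc1. The Myh6 and Myl3 windows lie inside the outer bounds of their genes. Matches and distances depend on the start used. A match is a description of letters, and binding of no factor was measured.

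Of 38 further Z-disc and filament genes 36 were tested, 0 were called in either direction, 9 estimates were below 0, where 33.6 percent of all tested genes were, and the median log2 fold change was 0.10. Tpm3, a tropomyosin of slow muscle and of non-muscle cells, had 26.7, 26.4, 26.5 and 27.6 TPM in western diet replicates 1 to 4, against 18.6, 18.002, 23.1 and 21.4 TPM in control replicates 1 to 4, with no overlap and a log2 fold change of 0.39 (limma adjusted p = 0.131). Pdlim7, a PDZ and LIM protein, averaged 30.5 ± 6.47 TPM with western diet and 21.3 ± 2.72 TPM in controls (SD, n = 4 each), with a log2 fold change of 0.48 (limma adjusted p = 0.221). Of 20 costamere and dystrophin complex genes, which link Z-discs to the membrane, 19 were tested and 0 were called, with a median of 0.13. The smallest p-value in that list belonged to Lims2 at 0.38 on the log2 scale (limma adjusted p = 0.249).

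Of 19 skeletal and foetal sarcomere isoforms 6 were tested and 0 were called. Acta1, skeletal alpha-actin, which is re-expressed in the stressed rodent heart, had 137, 448, 324 and 370.1 TPM in western diet replicates 1 to 4, against 126, 116, 98.9 and 70.3 TPM in control replicates 1 to 4. Every western diet library lay above every control, replicate 1 by the least, and the log2 fold change of 1.54 (SE 0.31) had a limma adjusted p of 0.0744. Tmod4, the skeletal tropomodulin, averaged 18.9 ± 0.806 TPM with western diet and 22.9 ± 2.52 TPM in controls (SD, n = 4 each), with a log2 fold change of -0.26 (limma adjusted p = 0.315). Of the 15 cardiomyocyte genes outside the sarcomere 0 were called, with a median of 0.073. Trdn, triadin of the calcium release complex, was lowest in adjusted p at 0.138 (limma), with a log2 fold change of -0.36, and Gja1, connexin 43, had -0.37 (limma adjusted p = 0.346).

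Among markers of other cell types, 1 of 10 endothelial markers, Cldn5, was called higher with western diet at a log2 fold change of 0.94 (limma adjusted p = 0.00527). Of 9 tested smooth muscle and pericyte markers, Tagln was called lower at -0.83 (limma adjusted p = 0.0169). In that list 7 of the 9 estimates were below 0, with a median of -0.21, where 33.6 percent of all tested genes were below 0. Acta2 went the other way from most of the list. Acta2 of the same list, named after its values were seen, averaged 80.8 ± 29.1 TPM with western diet and 33.4 ± 5.99 TPM in controls (SD, n = 4 each) with every western diet library above every control (limma adjusted p = 0.063). Kap, an androgen-regulated kidney transcript, was the 1 kidney marker past the minimum for testing, with 9.58, 7.15, 13.4 and 72.1 TPM in western diet replicates 1 to 4, against 0.685, 0.0717, 0 and 0.239 TPM in control replicates 1 to 4. It reached 1 TPM in all 4 western diet and 0 control libraries, so it entered the test only through the group where it was high and had to differ, and its limma adjusted p of 0.0169 is given for completeness. None of 10 fibroblast, 10 macrophage, 5 red cell, 6 tested atrial or 4 Y-linked markers was called, and their smallest limma adjusted p-values were 0.221 for Lum, 0.281 for C1qb, 0.718 for Hba-a1, 0.674 for Tbx5 and 0.114 for Kdm5d. The second smallest of those lists were Col1a1 at 0.43, C1qa at 0.44, Hba-a2 at 0.53, Nppa at -1.10 and Eif2s3y at -3.56 on the log2 scale. Whether these cell types or tissues have a part in the values of the sarcomere genes was not tested.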

How the data were processed

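Heart RNA of 8 libraries was measured, 4 western diet and 4 control. A Qiagen kit was used for RNA and an Illumina TruSeq stranded kit for libraries of polyadenylated RNA, per the labels' protocols. The authors deposited 1 table of gene-level TPM, whose columns summed to between 941318 and 953448. GRCm38, kallisto and DESeq2 were used per the submitters' processing notes, with versions and roles not given in the sources here. TPM keeps no depth, so read depth is unknown, no counting interval is given and no count test was run. TPM is also relative, so abundant transcripts lower all others. Ensembl identifiers were matched to symbols, positions and transcript lengths in GENCODE vM21, which named 29732 of 30153.

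Groups came from the labels, and replicates were numbered in accession order, which pairs nothing. The 10969 genes that reached 1 TPM in 4 or more libraries were tested with limma 3.58.1 (R 4.3.3) on log2(TPM + 1), two-sided, with the group as the only term, an intensity trend in the empirical Bayes step and Benjamini-Hochberg adjustment over all genes tested. Fold changes on this scale understate the change of low genes. The fit was tested on simulated data with independent noise of equal spread in both groups and with changes larger than any sarcomere estimate. How the fit handles smaller changes, unequal spread or differences shared by a whole library was not tested. Other steps used Python 3.11.15 with pandas 2.3.3 and matplotlib 3.10.9. Alternatives changed the pseudocount, the filter, the scaling, the variance model, a Y-linked term and the libraries used, and each replicate was left out in turn.

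The 37 genes and the other gene lists were chosen with earlier results of these data known. Values in every library are given for sarcomere genes averaging at least 100 TPM (20 genes), the 3 with the smallest p, those called and those below the minimum. Other sarcomere genes are given by range. Of each other list the genes called, or the 2 with the smallest p, are given, except 1 gene that is not reported here. Values by library of Myh7, Ttn, Tcap, Synpo2l and further genes shown so, the lengths, the ratios between genes and the promoters were chosen after the values were seen. MicroRNA and promoter sequences are from RefSeq on GRCm38.p6. Protein sequences were not used here.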

Additional observations from a re-analysis of the deposited data

Results flagged for a closer look

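Tpm1 in control replicate 4, at 9513 TPM, lay far from the other 3 controls at 9051, 9053 and 8988 TPM, the gap to the nearest being 0.877 of the range of the group. It was the only value to stand out this way among 76 groups of 4 libraries examined, where chance would give about 3.8. Western diet libraries spanned 7066 to 9743 TPM, so the control value lay within them.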

How the results depend on the processing

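No sarcomere gene passed the adjusted threshold in 19 of the 20 alternative fits, nor when the threshold was 0.10. The exception was the fit of the 5 libraries with Y-linked transcripts, with 2 sarcomere genes called, Tnnt2 and Myom2. The count of all genes changed, 33, was less stable: 5 with no filter, 15 with a mean of at least 5 TPM, 108 with library weights, 54 with a Y-linked term, 76 in libraries with Y-linked transcripts, 5 without libraries with atrial transcripts, 95 at an adjusted p under 0.10, and 8 to 95 when each replicate was left out in turn. With the Y-linked term and in libraries with Y-linked transcripts, the estimate rests on western diet replicate 4. The class medians in these fits were -0.30 (thick filament), -0.36 (thin filament) and -0.12 (assembly and light chain kinase). They were -0.19 for titin and M-band, -0.09 for Z-disc and -0.055 for desmin-linked genes. The Z-disc median was -0.12 under median-of-ratios scaling, which moves the median of all genes to -0.01, and -0.072 to 0.026 when each replicate was left out, positive without western diet replicate 4. The thin filament median then stayed between -0.23 and -0.12. The difference in mitochondrially encoded share ranged from -1.65 to 2.36 percentage points when each replicate was left out, highest without western diet replicate 1. Signs of uncalled estimates held in each alternative fit that included the gene for 16 sarcomere genes (14 lower, 2 higher) and changed at least once for 20. The fits with another filter, without the intensity trend or with a robust prior variance cannot alter an estimate. The Y-linked term and the libraries with Y-linked transcripts give the same estimate, so the 20 fits are not 20 separate checks. Myom3 and Synm, among the 16, were below a mean of 5 TPM and had 19 fits in place of 20. The causes were not tested. No paired analysis was possible because the labels give no replicate numbers that the groups share.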
